A study of Mus musculus with 114 samples.

Results

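Tubulin genes were examined in adipocytes isolated from the perigonadal fat of male mice. The 10 genes are Tuba1a, Tuba1b, Tuba1c, Tuba4a, Tubb2a, Tubb2b, Tubb4b, Tubb5, Tubb6 and Tubg1, chosen by symbol from the 29132 genes for which expression was given, and 9 of them passed the filter on low values while Tubb2b did not. RNA-seq values were available for 38 C57BL/6 mice (C57BL/6J in the methods of the study), fed chow (CD) or a high fat diet (HFD) from 6 weeks of age. Feeding lasted 8, 20 or 34 weeks, and each of the 6 groups had 6 mice, except for the 34 week CD group with 8. All mice were unmodified males, and age and time on the diet rose together. The adipocytes were the cells that float after the fat pad is digested with collagenase, so that other cells carried over in the floating fraction are part of the sample. The question addressed is how adipocyte expression differs between the diets as feeding is prolonged.

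Microtubules are hollow polymers of α- and β-tubulin dimers. Each tubulin is encoded by several genes, the isotypes, whose products co-assemble and differ mainly in their acidic C-terminal tails, where motors and modifying enzymes bind. γ-Tubulin is not part of the wall of the polymer but forms the ring complex from which microtubules grow. In adipocytes, microtubules carry vesicles of the insulin-responsive glucose transporter and take part in the movement of lipid droplets.

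The isotypes are near copies of each other, which limits how well short reads can be assigned to them. Coding sequences of the GENCODE vM21 transcripts (GRCm38) were 98.3% identical between Tuba1a and Tuba1b and 96.5% identical between Tubb2a and Tubb2b. The last 60 coding bases, which encode the C-terminal tail and the stop codon, are given here for Tubb2a and Tubb2b, with the bases that differ between them in capitals. They lie on the minus strand in the coding part of the last exon, at chr13:34074468-34074527 (Tubb2a) and chr13:34127471-34127530 (Tubb2b).
Tubb2a: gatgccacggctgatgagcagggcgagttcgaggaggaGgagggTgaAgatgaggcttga
Tubb2b: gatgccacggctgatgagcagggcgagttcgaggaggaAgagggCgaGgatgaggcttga
Only 3 of these 60 bases differed, each at the last base of its codon, and none of the 3 changes the encoded amino acid. Of all 75-base windows of the transcript, 68.3% of Tuba1a, 71.9% of Tuba1b and 56.7% of Tuba1c occurred in a transcript of another gene, most often a further member of this cluster or a predicted gene. The share was 43.2% for Tubb2a, 32.2% for Tubb2b, 37.8% for Tubb4b (mostly with its pseudogenes) and 7.64% for Tubg1, and 0 for Tuba4a, Tubb5 and Tubb6. The division of reads within Tuba1a, Tuba1b and Tuba1c, within Tubb2a and Tubb2b, and between Tubb4b and its pseudogenes is therefore less certain than the values of Tuba4a, Tubb5 and Tubb6.

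Tuba1a (Entrez 22142, chromosome 15, 98949847 to 98953501), Tuba1b (Entrez 22143, 98931429 to 98934390) and Tuba1c (Entrez 22146, 99029891 to 99038105) are neighbours on chromosome 15. Tubb2a (Entrez 22151, 34074278 to 34078008) and Tubb2b (Entrez 73710, 34127008 to 34130354) are neighbours on chromosome 13. Tuba4a (Entrez 22145) is on chromosome 1, 75214972 to 75221261, and Tubb4b (Entrez 227613) on chromosome 2, 25222158 to 25224702. Tubb5 (Entrez 22154) is on chromosome 17, 35833920 to 35838301, Tubb6 (Entrez 67951) on chromosome 18, and Tubg1 (Entrez 103733) on chromosome 11, 101119904 to 101126423. Positions are those of RefSeq on GRCm38.

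Values are CPM, the reads of a gene per 1000000 reads on all listed genes. The mice had 9275711 to 15480388 reads, and the worth of 1 read was 0.0646 to 0.108 CPM. Depth separated the diets at 8 weeks, with 10562845 to 12611013 reads in CD and 13201234 to 15480388 in HFD mice. The 8 adipocyte markers, Adipoq and Plin1 among them, summed to between 15876 and 45298 CPM, and none was at 0 in a whole group. The 11 macrophage markers present summed to 254 to 1436 CPM in CD and 1047 to 3199 CPM in HFD mice at 8 weeks, 401 to 3091 against 4472 to 8653 CPM at 20 weeks, and 1168 to 12812 against 5315 to 16159 CPM at 34 weeks. The 10 proliferation markers, such as Mki67 and Top2a, summed to medians of 11.1 (CD) and 54.3 CPM (HFD) at 8 weeks, 23.4 and 246 CPM at 20 weeks and 51.1 and 269 CPM at 34 weeks. The 34 week CD mouse 5 stood apart within its group, with the 12812 CPM of macrophage markers and 256 CPM of proliferation markers.

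Transcript levels per length, in CPM per kb of merged exons, separated abundant from scarce isotypes. In CD mice at 8 weeks, Tuba1a had 121 ± 40.1 CPM per kb (SD, n = 6), Tuba1b 106 ± 16.9 and Tubb4b 87.3 ± 4.43, and these neighbours in the order overlapped. Tubb6 followed at 46.4 ± 9.36 and Tubb5 at 30.1 ± 3.82 CPM per kb, with overlapping ranges. Tubb2a at 17.4 ± 3.12 and Tuba1c at 16.4 ± 3.64 CPM per kb could not be placed apart. Tubg1 had 9.25 ± 1.06, Tuba4a 5.15 ± 0.891 and Tubb2b 0.309 ± 0.123 CPM per kb. In HFD mice at 34 weeks Tuba1a again led, at 466 ± 214 CPM per kb, and Tubb5 had rank 3 at 114 ± 28.3 CPM per kb. Its range of 80.3 to 153 overlapped those of Tuba1b above it (127 to 201) and Tubb4b below it (69.7 to 113). There, the means of Tubb6 (54.8 ± 16.3) and Tuba1c (54.7 ± 17.2) were the closest pair of neighbours. As a ratio of highest to lowest over all 38 mice, the range was widest for Tuba1a, from 13.9 to 2415 CPM. By that ratio it was narrowest for Tubb4b, from 134 to 265 CPM, where the highest mouse was 1.98 times the lowest.

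At 8 weeks, Tuba1a, Tuba1b, Tubb2a, Tubb5 and Tubg1 rose with HFD, and no member fell. This is 5 of the 9 tested members, where 44.9% of the 10343 genes tested were called at an adjusted p under 0.05 (limma, Benjamini-Hochberg) 29.8% higher and 15.1% lower. At 20 weeks 6 of 9 rose (Tuba1a, Tuba1b, Tuba1c, Tubb2a, Tubb5 and Tubg1), where 57.0% of all genes were called 38.3% higher and 18.7% lower. At 34 weeks Tuba1c, Tubb2a, Tubb5 and Tubb6 rose and Tuba4a fell, 5 of 9 members against 43.2% of all genes, 27.5% higher and 15.7% lower. The median log2 fold change of the 9 members was 0.48, 0.45 and 0.10 at 8, 20 and 34 weeks, beside 0.11, 0.14 and 0.07 over all genes tested. The diets did not overlap in 3 members at 8 weeks (22.8% of all genes), 4 at 20 weeks (37.2%) and 1, Tubb2a, at 34 weeks (2.46%). Whether each cell made more of a transcript or the fraction held more cells that make it cannot be told apart in bulk samples. Scaling mattered for the background, since 66.3%, 67.1% and 63.6% of all calls lay on the HFD side at the 3 durations as deposited, but 51.4%, 44.7% and 51.9% with TMM factors. TMM factors shifted the median over all genes to 0.01, -0.07 and -0.01, and relative to that shift every member called above kept its direction.

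**Figure D1:**
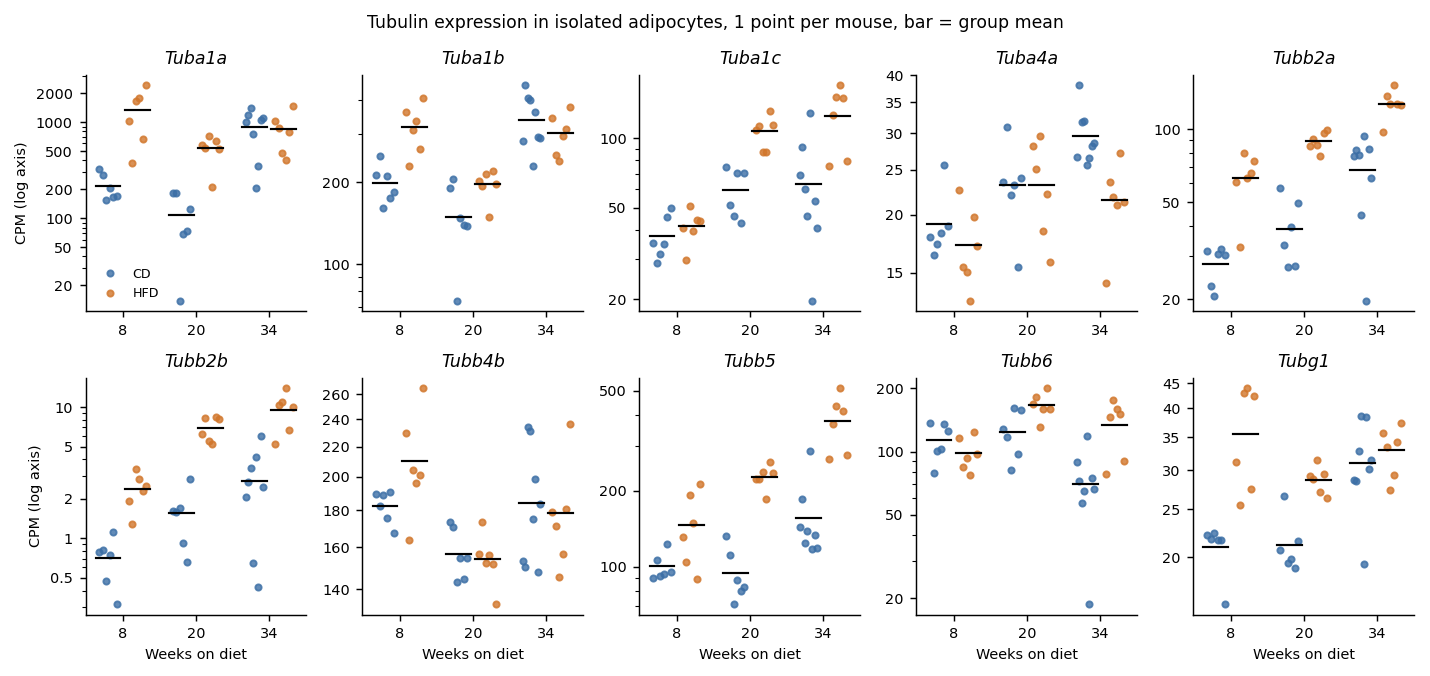
CPM of the 10 tubulin genes (log axis) against weeks on the diet, with 1 point per mouse (CD blue, HFD orange) and a bar at the group mean. Tuba1a is separated by diet at 8 and 20 weeks and not at 34 weeks, where CD mice reach 1408 CPM, while Tubb2a is separated at all 3 durations.

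Tuba1a, an α-tubulin known for its part in neuronal development, differed most between the diets at 8 and 20 weeks among the members. In CD mice at 8 weeks it ranged from 153 to 329 CPM (median 189), and in HFD mice from 375 to 2415 CPM (median 1339). No CD mouse reached the lowest HFD mouse, with means of 219 ± 72.3 and 1322 ± 766 CPM (SD, n = 6), a log2 fold change of 2.40 ± 0.50 (SE, limma adjusted p = 0.00035). At 20 weeks CD mice ranged from 13.9 to 184 CPM (median 99.3) and HFD mice from 211 to 714 CPM (median 555). The groups again did not overlap, and the log2 fold change was 2.59 ± 0.50 (SE, limma adjusted p = 5.59e-05). CD mouse 3 held the 13.9 CPM, and without it the change was 2.09 and stayed called. At 34 weeks CD mice had risen to between 205 and 1408 CPM (median 1032), and HFD mice had 405 to 1458 CPM (median 836). No diet difference was detected there, with a log2 fold change of 0.02 ± 0.47 (SE, limma adjusted p = 0.978) that turned to -0.07 with TMM factors.

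Tuba1b, the α-tubulin expressed in most dividing cells, moved in the same direction with a smaller amplitude. It was at 161 to 249 CPM (median 197) in CD and 230 to 407 CPM (median 324) in HFD mice at 8 weeks. These ranges overlapped in 1 HFD mouse, and the log2 fold change was 0.67 ± 0.18 (SE, limma adjusted p = 0.00382). At 20 weeks it was at 73.7 to 205 CPM in CD and 150 to 220 CPM in HFD mice, a log2 fold change of 0.45 (limma adjusted p = 0.0330). That call was lost with TMM factors (0.24) and with median-of-ratios size factors (0.30), and on leaving out CD mouse 3, 5 or 6 or HFD mouse 1, 3 or 5. Without CD mouse 3 the change was 0.27 with an adjusted p of 0.168, and without any other of these it was 0.42 to 0.45. At 34 weeks the means were 340 ± 76.8 (CD, n = 8) and 303 ± 52.8 CPM (HFD, n = 6), which was no detected difference (log2 fold change -0.15, limma adjusted p = 0.488).

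Tuba1c showed the reverse order in time. The 8 week means were 37.6 ± 8.31 (CD) and 41.5 ± 7.01 CPM (HFD), and the log2 fold change was 0.15 (limma adjusted p = 0.667). At 20 weeks CD mice ranged from 42.7 to 74.8 CPM (median 61.0) and all HFD mice lay above them at 87.2 to 131 CPM (median 111). The log2 fold change was 0.86 ± 0.27 (SE, limma adjusted p = 0.00648). At 34 weeks CD mice were spread from 19.7 to 128 CPM (median 56.5) and HFD mice from 75.9 to 170 CPM (median 137), a change of 1.08 ± 0.25 (SE, limma adjusted p = 0.00102). CD mouse 5, with its high macrophage markers, held the 128 CPM and CD mouse 6 the 19.7 CPM.

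Tuba4a, the least abundant of the 4 α members, was the member that fell. Its 8 and 20 week values overlapped, and neither the change of -0.15 at 8 weeks (limma adjusted p = 0.435) nor that of -0.00 at 20 weeks (limma adjusted p = 0.983) was called. At 34 weeks it was at 25.7 to 38.1 CPM (median 28.3) in CD and 14.3 to 27.1 CPM (median 21.6) in HFD mice. In 5 of 6 HFD mice it lay below all CD mice, and the log2 fold change was -0.46 ± 0.14 (SE, limma adjusted p = 0.0104). Array weights ended this call, with a change of -0.28.

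Of the β-tubulins, Tubb2a was called higher in HFD at each duration. It was at 20.5 to 32.1 CPM (median 30.5) in CD and 32.8 to 79.8 CPM (median 64.7) in HFD mice at 8 weeks, which did not overlap although the lowest HFD mouse came within 1 CPM of the highest CD mouse. The log2 fold change was 1.11 ± 0.25 (SE, limma adjusted p = 0.000682). At 20 weeks the ranges were 27.0 to 57.4 CPM (median 36.5) and 77.5 to 98.9 CPM (median 88.6), a change of 1.22 ± 0.25 (SE, limma adjusted p = 9.39e-05). At 34 weeks they were 19.7 to 93.9 CPM (median 77.9) and 97.8 to 152 CPM (median 127), a change of 1.02 ± 0.23 (SE, limma adjusted p = 0.000911). The HFD minimum exceeded the CD maximum at all 3 durations, as in 0.503% of all genes tested. Of all genes 12.2% were called higher in HFD at all 3.

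Tubb2b, its neighbour and a β-tubulin best known from the developing brain, was scarce and fell below the filter, with a mean log2(CPM + 1) of 1.96 against the limit of 2.0. In CD mice it was at 0.317 to 1.12 CPM at 8 weeks, 0.658 to 2.83 CPM at 20 weeks and 0.423 to 6.00 CPM at 34 weeks. In HFD mice it was at 1.29 to 3.36, 5.25 to 8.34 and 5.23 to 13.8 CPM. The diets did not overlap at 8 and 20 weeks, and at 34 weeks 1 HFD mouse lay below the highest CD mouse. The differences in mean log2(CPM + 1) were 0.97, 1.67 and 1.60. An exact two-sided permutation test over mice gave p = 0.00216 at 8 weeks and at 20 weeks, the smallest that 6 against 6 allows, and p = 0.00133 at 34 weeks. Since 32.2% of its 75-base windows are shared with other genes, mainly Tubb2a, reads of Tubb2a could be counted here.

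Tubb5, the β-tubulin of most proliferating cells, showed a diet difference that was larger at the later durations. At 8 weeks it was at 90.2 to 123 CPM (median 94.6) in CD and 89.6 to 213 CPM (median 140) in HFD mice. The groups overlapped, and the log2 fold change of 0.48 ± 0.20 (SE, limma adjusted p = 0.0455) was near the threshold, with the call lost under TMM factors (0.38). It was also lost on leaving out CD mouse 1, 2, 3, 4 or 6 or HFD mouse 1, 3, 4 or 6, where the change was 0.36 to 0.50. At 20 weeks the ranges were apart, at 185 to 260 CPM (median 229) in HFD and 71.2 to 132 CPM (median 85.6) in CD mice, a change of 1.28 ± 0.20 (SE, limma adjusted p = 2.54e-06). At 34 weeks the ranges were 117 to 289 CPM (median 136) in CD and 267 to 510 CPM (median 391) in HFD mice, a change of 1.30 ± 0.19 (SE, limma adjusted p = 9.69e-06). The overlap came from CD mouse 5 at 289 CPM, the next CD mouse being at 186 CPM.

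Tubb6, a β-tubulin whose overexpression is known to loosen microtubule arrays, was higher in HFD at 34 weeks. At 8 weeks the means were 113 ± 22.8 (CD) and 98.7 ± 17.7 CPM (HFD), a log2 fold change of -0.19 (limma adjusted p = 0.573), and at 20 weeks 124 ± 32.0 and 166 ± 23.3 CPM, a change of 0.45 (limma adjusted p = 0.141) that was called where the 20 week groups were fitted alone or with array weights (0.37). It moved to 0.23 with TMM factors and to -0.36 with the macrophage covariate, neither called. At 34 weeks CD mice were at 18.9 to 119 CPM (median 69.3) and HFD mice at 78.3 to 177 CPM (median 148), with a change of 1.00 ± 0.24 (SE, limma adjusted p = 0.00159). The means of CD mice were lower there than at the earlier durations. CD mouse 6 held the 18.9 CPM.

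Tubb4b, a β-tubulin found in most tissues, was not called between the diets. Its CD and HFD means were 182 ± 9.24 and 210 ± 34.2 CPM at 8 weeks, 157 ± 12.7 and 154 ± 12.7 CPM at 20 weeks and 184 ± 34.6 and 178 ± 31.5 CPM at 34 weeks. The log2 fold changes were 0.19, -0.03 and -0.04 with standard errors of 0.11, 0.11 and 0.11. The 8 week change was called with array weights (0.25) and with the macrophage covariate (0.31), and the 20 week change moved to -0.24 with TMM factors, not called.

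Tubg1, the γ-tubulin that nucleates microtubules, rose at 8 and 20 weeks. It was at 16.1 to 22.3 CPM (median 21.7) in CD and 25.5 to 43.9 CPM (median 36.7) in HFD mice at 8 weeks, without overlap, a log2 fold change of 0.71 ± 0.13 (SE, limma adjusted p = 9.46e-05). At 20 weeks it was at 19.0 to 26.6 CPM (median 20.3) and 26.3 to 31.4 CPM (median 29.0), with 5 of 6 HFD mice above all CD mice, a change of 0.43 ± 0.13 (SE, limma adjusted p = 0.00653). TMM factors reduced the latter to 0.22 and ended the call. At 34 weeks the means were 31.0 ± 6.14 and 32.9 ± 3.80 CPM, a change of 0.10 (limma adjusted p = 0.518).

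**Figure D2:**
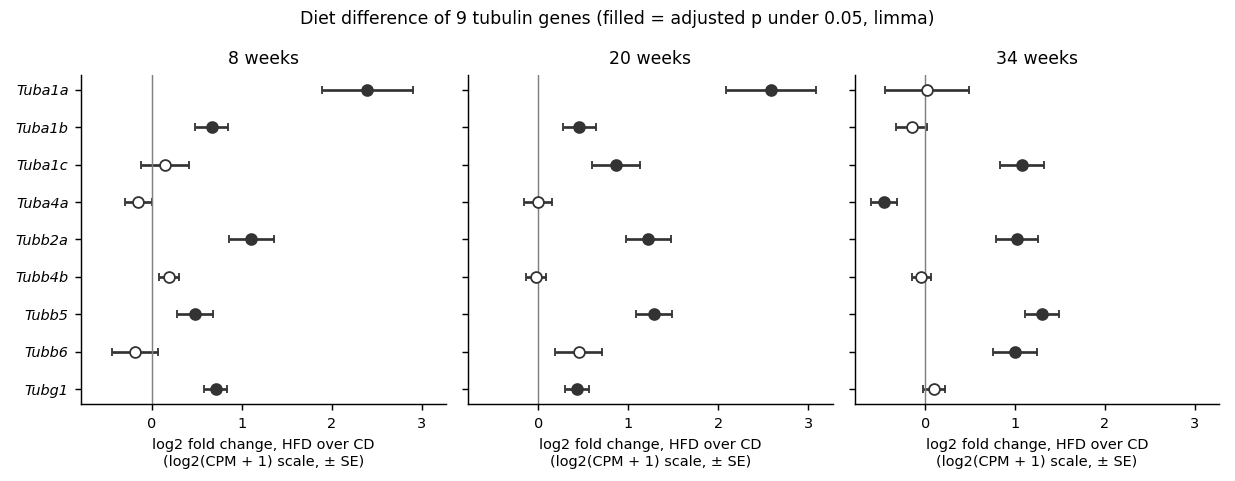
Log2 fold change of HFD over CD with its standard error for the 9 tested members at 8, 20 and 34 weeks, with filled points for an adjusted p under 0.05. Tuba1a sits at 2.40, 2.59 and 0.02 and Tubb5 at 0.48, 1.28 and 1.30 in the 3 panels.

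The diet difference itself was compared between durations with interaction terms. Between 34 and 8 weeks it differed in 5 of 9 members, where 28.8% of all genes tested were called, 13.0% with a larger and 15.9% with a smaller value at 34 weeks. The difference was smaller at 34 weeks in Tuba1a (-2.38, limma adjusted p = 0.00959), Tuba1b (-0.82, limma adjusted p = 0.0136) and Tubg1 (-0.61, limma adjusted p = 0.0114). It was larger at 34 weeks in Tubb5 (0.81, limma adjusted p = 0.0234) and Tubb6 (1.18, limma adjusted p = 0.0120), while Tuba1c had 0.93 with an adjusted p of 0.0519 that passed with TMM factors (0.94). Between 34 and 20 weeks Tuba1a alone of the 9 members passed (-2.57, standard error 0.69, limma adjusted p = 0.0152), where 10.5% of all genes were called and 6.31% called lower. Between 20 and 8 weeks none of the 9 passed with limma, where 4.49% of all genes did, and Tubb5 (0.80) was the sole member with an unadjusted p under 0.05 (p = 0.00750). Fitting the 8 and 20 week groups alone called 3 members there (Tuba1c, Tubb5 and Tubb6), where it called 2698 of the 10343 genes. edgeR and DESeq2 called 0 members, where they called 484 and 851 genes. Over all genes, the share of interaction calls that were positive was 62.7%, 40.0% and 45.0% for 20 against 8, 34 against 20 and 34 against 8 weeks, and 47.0%, 67.0% and 51.5% with TMM factors. No interaction was called in Tubb2a, with values of 0.11, -0.20 and -0.09 for the comparisons of 20 with 8, 34 with 20 and 34 with 8 weeks.

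Time on chow brought changes of similar size, in mice that also grew older. From 8 to 20 weeks of CD none of the 9 members passed with limma (3.58% of all genes did), although Tuba1a (-1.34), Tuba1b (-0.47) and Tuba1c (0.64) had unadjusted p-values of 0.0116, 0.0148 and 0.0218. edgeR and DESeq2 called 0 and 0 members, where they called 388 and 590 of the 10343 genes. Array weights called 3 members, where they called 1543 genes. From 20 to 34 weeks of CD 7 of 9 were called, where 62.5% of all genes were, 41.1% higher and 21.4% lower. Tuba1a rose by 3.19 on the log2 scale (standard error 0.47, limma adjusted p = 9.34e-07), from 108 ± 67.8 to 885 ± 420 CPM, with all 8 mice at 34 weeks above all 6 at 20 weeks. Tuba1b rose by 1.22 (limma adjusted p = 3.85e-07), also without overlap (20.0% of all genes), and Tubb2a, Tubb5, Tubg1 and Tuba4a rose by 0.71, 0.69, 0.51 and 0.36. The Tuba4a call was lost with TMM factors (0.20), array weights (0.37) and the macrophage covariate (0.33) and without 20 week CD mouse 5 or 34 week CD mouse 2. The Tubb2a call was lost where the compared groups were fitted alone (adjusted p of 0.0634) and with the covariate (0.18), and the Tubb5 call with the covariate (0.23). Macrophage markers rose in the same comparison, 8 of 11. Tubb6 fell by 0.91 (limma adjusted p = 0.00156), from 124 ± 32.0 to 70.3 ± 28.4 CPM. Between 8 and 34 weeks of CD 8 of 9 were called, 7 higher and Tubb6 lower, beside 40.1% and 24.6% of all genes (64.7% in all). Tuba1c was among them (0.59) but not with TMM factors (0.46), nor without 8 week CD mouse 1, 2, 3 or 4 or 34 week CD mouse 1, 2, 3 or 5 (adjusted p of up to 0.105). With the macrophage covariate, whose markers rose in 11 of 11, 5 members were called, where 5198 of the 10343 genes were. These comparisons share the 34 week CD mice with the diet comparison at 34 weeks.

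In HFD mice the members moved in both directions from 8 to 20 weeks. Tuba1c (1.35, limma adjusted p = 0.000356), Tubb6 (0.75, limma adjusted p = 0.0227), Tubb5 (0.69, limma adjusted p = 0.00767) and Tuba4a (0.40, limma adjusted p = 0.0375) rose. Tuba1b (-0.68, limma adjusted p = 0.00443) and Tubb4b (-0.43, limma adjusted p = 0.00343) fell, which makes 6 of 9 members called where 36.5% of all genes were, 21.2% higher and 15.3% lower. Macrophage markers rose in 10 of 11 (median 1.75) in the same comparison. With them as a covariate 0 of the 9 members were called, where 519 of the 10343 genes were. The changes in that fit were 0.54 (Tuba1c), 0.15 (Tubb6), 0.13 (Tubb5), 0.37 (Tuba4a), -0.68 (Tuba1b) and -0.29 (Tubb4b). The marker sums of these 2 groups did not overlap, at 1047 to 3199 CPM and 4472 to 8653 CPM. The Tuba4a call was lost without HFD mouse 2, 3, 4 or 6 of the 8 week group or 1, 2, 3 or 5 of the 20 week group (adjusted p of up to 0.103), and that of Tubb6 without 8 week HFD mouse 4 or 20 week HFD mouse 5 (adjusted p of up to 0.0510). TMM factors also ended the Tuba4a call (0.32) and in turn called the fall of Tuba1a (-1.23, as deposited -1.15). From 20 to 34 weeks Tuba1b (0.62) and Tubb5 (0.70) rose, 2 of 9 members where 30.2% of all genes were called and 17.8% called higher. Between 8 and 34 weeks Tuba1c (1.52), Tubb2a (1.05) and Tubb5 (1.39) rose, 3 of 9 members beside 52.5% of all genes called and 31.7% called higher. Macrophage markers rose in 11 of 11 (median 2.70), and with them as a covariate 1 member, Tubb5 (0.60), was called, where 1343 of the 10343 genes were. The marker sums of the 8 and 34 week HFD groups did not overlap, at 1047 to 3199 CPM and 5315 to 16159 CPM. Nor did these groups overlap in Tuba1c, Tubb2a and Tubb5 (24.0% of all genes), and TMM factors added a fall of Tubb4b (-0.35). TMM factors moved the share of calls that were higher from 58.1% to 45.3%, from 58.8% to 49.9% and from 60.4% to 47.2% in these 3 HFD comparisons, and in CD mice from 65.7% to 49.9% between 34 and 20 weeks and from 62.0% to 49.8% between 34 and 8 weeks.

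The composition of the tubulin transcripts differed between groups as well as their sum. Summed over the 4 α members, the level was 249 ± 52.4 CPM per kb in CD and 926 ± 455 in HFD mice at 8 weeks, 172 ± 64.9 and 453 ± 112 at 20 weeks and 708 ± 252 and 688 ± 221 at 34 weeks. Tuba1a made up 43.0% to 57.7% of this sum in CD and 59.8% to 84.8% in HFD mice at 8 weeks, and 10.6% to 42.1% and 48.8% to 71.1% at 20 weeks, without overlap of the diets at either time. At 34 weeks its share was 38.1% to 77.3% in CD and 48.6% to 77.0% in HFD mice. Summed over the 5 β members, the level was 182 ± 14.5 and 225 ± 37.8 CPM per kb at 8 weeks, 179 ± 27.6 and 269 ± 18.6 at 20 weeks and 207 ± 36.2 and 338 ± 45.0 at 34 weeks, CD before HFD. At 20 weeks Tubb4b made up 42.4% ± 4.49 of the β sum in CD and 27.5% ± 2.56 in HFD mice, with levels of 157 and 154 CPM, and Tubb5 had 15.8% ± 2.37 and 25.4% ± 2.11. At 34 weeks Tubb5 made up 22.3% ± 4.63 in CD and 33.4% ± 4.49 in HFD mice. These shares inherit the uncertain division of reads among the near copies.

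**Figure D3:**
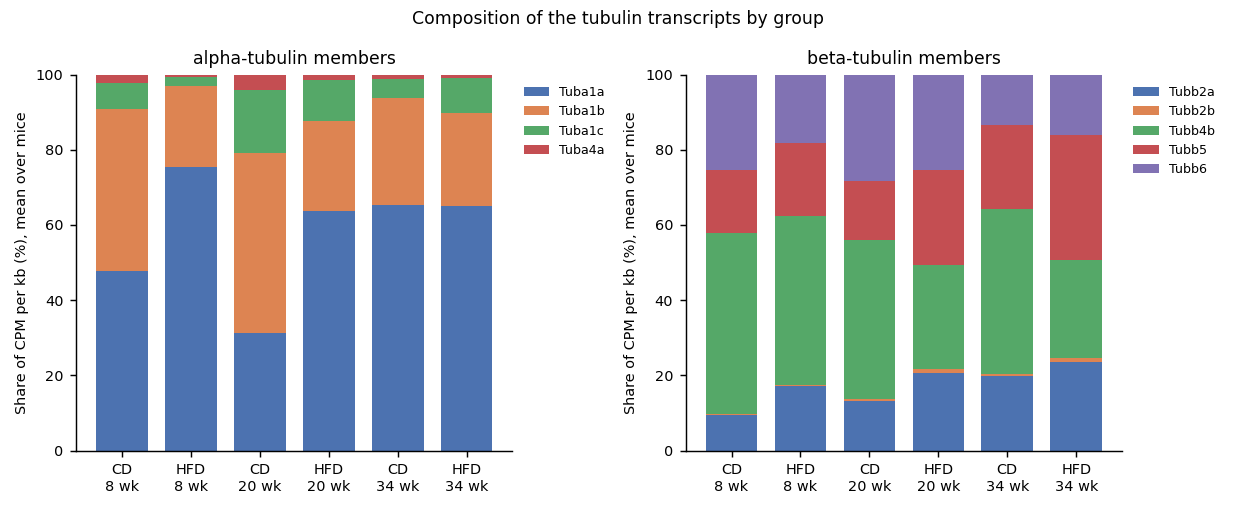
Mean share of each member in the summed CPM per kb of the α-tubulin members and of the β-tubulin members, in percent, stacked for the 6 groups. The Tuba1a share is 47.8% and 75.4% in CD and HFD mice at 8 weeks and 65.3% and 65.2% at 34 weeks, and the Tubb5 share is 33.4% in HFD mice at 34 weeks.

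Across the 38 mice the members fell into partly linked sets by their correlations of log2(CPM + 1), given as a description since the mice share groups. Tuba1a correlated with Tuba1b (Pearson r = 0.88) and Tubg1 (0.82), and Tuba1b with Tubg1 (0.75). Tubb2a correlated with Tubb5 (0.86) and Tuba1c (0.83), and Tuba1c with Tubb5 (0.80) and Tubb6 (0.65). Tuba1a and Tuba1c, on the same chromosome and 97.1% identical in coding sequence, had r = 0.14, and Tuba1b and Tubb6 had r = -0.43. Other pairs linked the sets, with r of 0.60 for Tubb2a and 0.50 for Tubb5 with Tuba1a. With Tubg1 these had 0.49 and 0.47, and Tubb4b had 0.59 with Tuba1b.

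Other cell types moved with the same mice. With the mean log2(CPM + 1) of the 11 macrophage markers, r over the 38 mice was 0.90 for Tubb2a, 0.90 for Tubb5, 0.86 for Tuba1c and 0.84 for Tubb2b, and 0.68, 0.74, 0.79 and 0.43 after the group means were removed. It was 0.46 for Tuba1a, 0.32 for Tuba1b and 0.38 for Tubg1, and 0.11, -0.01 and -0.36 without the group means. For Tubb6 it was 0.33, and 0.61 without the group means. The proliferation markers gave 0.94 for Tubb5, 0.90 for Tubb2a, 0.88 for Tubb2b and 0.86 for Tuba1c. The adipocyte markers gave -0.62, -0.52, -0.61 and -0.81 for these genes. The progenitor and fibroblast markers gave them 0.77, 0.80, 0.80 and 0.77, and 0.64, 0.62, 0.43 and 0.67 without the group means. With these markers the remaining members had r between -0.17 (Tubb4b) and 0.48 (Tubb6). Between the diets, 8, 10 and 11 of 11 macrophage markers rose at 8, 20 and 34 weeks, as did 4, 5 and 5 of 5 tested proliferation markers. Only these 5 of the 10 listed proliferation markers passed the filter on the mean over all mice. A scarce gene can pass it through the HFD groups where it is high, so this count is partly set by the filter. Of 8 adipocyte markers 1, 5 and 7 fell and 1, 1 and 0 rose. Over all genes tested, 29.8%, 38.3% and 27.5% were called higher and 15.1%, 18.7% and 15.7% lower. In a fit with the macrophage mean as a covariate, Tuba1a kept changes of 2.21 and 2.29 at 8 and 20 weeks and Tubg1 of 0.86 and 0.67, all called. In the same fit Tuba1c had -0.54 (called), -0.22 and 0.34 at 8, 20 and 34 weeks, so that its direction turned at 8 and 20 weeks. Tubb5 went from 0.48, 1.28 and 1.30 to 0.00 (not called), 0.53 and 0.78 (both called) at 8, 20 and 34 weeks, and Tubb2a kept 0.56 at 8 weeks but not its calls at 20 (0.36) and 34 weeks (0.43). Tubb6 had -0.70 at 8 weeks, a fall that was called there and not without the covariate, turned from 0.45 to -0.36 at 20 weeks and lost its call at 34 weeks (0.44), as did Tuba4a (-0.49). At 20 weeks the marker sums of the diets did not overlap, at 401 to 3091 CPM in CD and 4472 to 8653 CPM in HFD mice. The covariate and the diet cannot be fully told apart there, so the 20 week values of this fit lean on its slope.

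Markers of other cells were also called higher with HFD at 8, 20 and 34 weeks. These were endothelial (6, 4 and 5 of 6), progenitor and fibroblast (4, 6 and 4 of 6 tested) and mural cell markers (4, 4 and 2 of 6). Of the lipid-associated macrophage markers 7, 7 and 5 of 8 were higher, with 1 lower at 20 weeks. Over all genes 29.8%, 38.3% and 27.5% were higher, and the mural cell share at 34 weeks was close to this. The lipid-associated markers had mean sums of 13238 CPM (CD, 8 weeks) and 16822 CPM (HFD, 34 weeks). The 11 macrophage markers had 721 and 10922 CPM there, so the lipid-associated list cannot stand for macrophages alone. Mesothelial markers rose in 2, 0 and 0 of 3 tested, and T and B cell markers summed to at most 6.07 CPM. The testis and sperm markers, a check on neighbouring tissue, had group medians of at most 0.282 CPM, with 42.8 CPM in 1 CD mouse at 8 weeks. The part of these cells in the tubulin differences was not tested beyond the macrophage covariate.

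**Figure D4:**
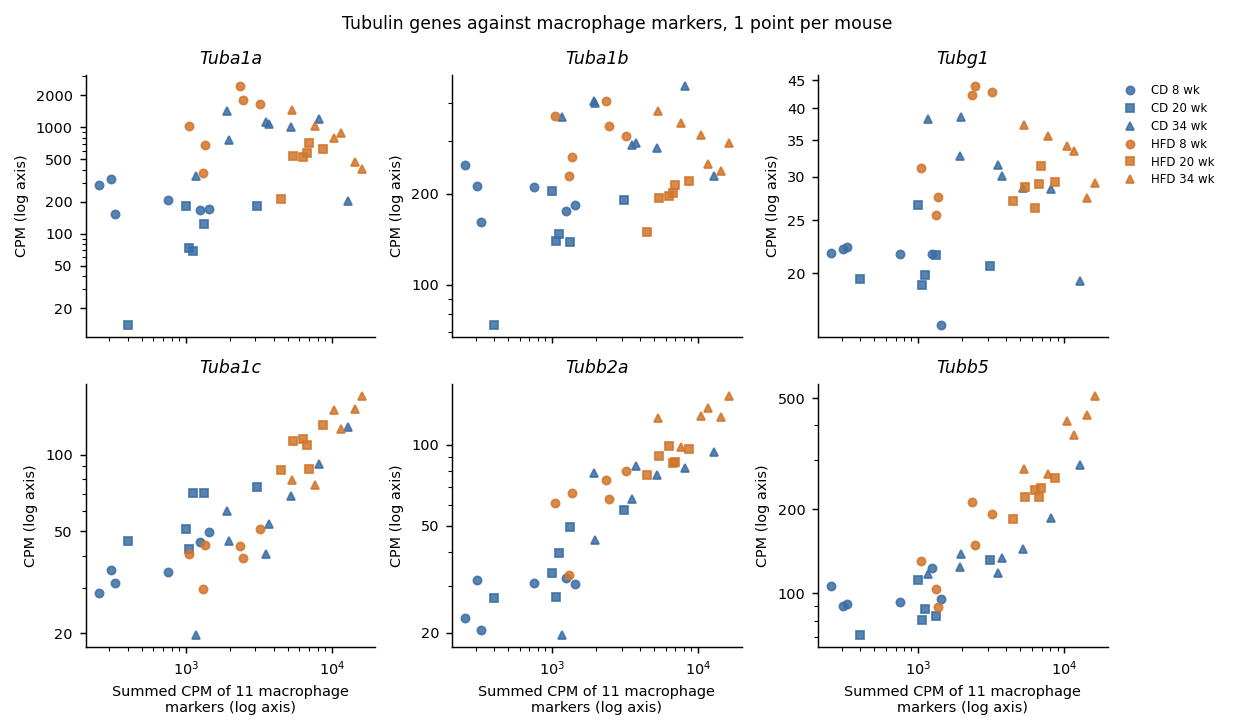
CPM of 6 members against the summed CPM of the 11 macrophage markers, both on log axes, with 1 point per mouse, colour for diet and shape for duration. Tuba1c, Tubb2a and Tubb5 rise along the marker sum over all groups (r on the log2 scale of 0.86, 0.90 and 0.90 with the marker mean), whereas Tuba1a, Tuba1b and Tubg1 do so less (0.46, 0.32 and 0.38).

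The 10 other tubulin genes of the mouse were scarce in these samples. Only Tubd1, a δ-tubulin of centrioles, passed the filter, at 6.80 ± 0.792 (CD) and 10.1 ± 2.30 CPM (HFD) at 8 weeks, a rise of 0.49 on the log2 scale (limma adjusted p = 0.00553) that was not called at 20 (0.15) or 34 weeks (-0.23). The neuronal isotype Tubb3 had group means of 0.183 to 1.30 CPM, and Tuba8 of 0.396 to 2.46 CPM. Tubg2, the other γ-tubulin, had 1.02 (CD) and 0.685 CPM (HFD) at 34 weeks.

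The chaperonin CCT and prefoldin complexes pass nascent tubulin on for folding, and 3, 4 and 1 of 13 tested subunits rose with HFD at 8, 20 and 34 weeks, with none lower. These shares lie below those over all genes, of which 29.8%, 38.3% and 27.5% were higher and 15.1%, 18.7% and 15.7% lower, and the median log2 fold changes of 0.10, 0.11 and 0.09 compare with 0.11, 0.14 and 0.07 over all genes. Tcp1 rose by 0.27 and 0.25 at 8 and 20 weeks, from 173 ± 6.94 to 209 ± 14.7 and from 177 ± 7.62 to 210 ± 6.65 CPM, and Cct2 rose by 0.19 and 0.17, while Cct5 was not called. Of the 8 tubulin folding cofactors, which assemble the dimer, 3, 3 and 0 rose and 0, 1 and 1 fell (medians of 0.17, 0.12 and 0.07). Tbcd rose by 0.51 (limma adjusted p = 6.04e-05) and 0.58 (limma adjusted p = 3.32e-06) at 8 and 20 weeks and Tbcb by 0.40 and 0.57, and both had smaller values at 34 weeks (0.16 and 0.10) that were not called, while Tbca was called at none.

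The γ-tubulin complex and its recruiters had 8, 8 and 6 of 15 genes higher and 1 lower at each duration, beside 29.8%, 38.3% and 27.5% of all genes higher and 15.1%, 18.7% and 15.7% lower (medians of 0.22, 0.38 and 0.28). Tubgcp2, a core subunit of the ring complex, rose by 0.26, 0.46 and 0.40, while the scaffold genes Akap9 and Pcnt were not called. Among 20 tested microtubule-binding and plus-end genes, 10, 16 and 9 rose and 1 fell at each duration, beside the same shares of all genes (medians of 0.26, 0.50 and 0.27). Map4, a stabilising protein outside neurons, rose by 0.83, 1.08 and 0.42, from 119 ± 33.3 to 245 ± 26.9 CPM at 20 weeks, and Mapre1, the plus-end tracker EB1, by 0.27, 0.50 and 0.47. Map7d1 rose at 20 weeks alone of the 3 durations (0.29, limma adjusted p = 0.0392).

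Of 12 tested tubulin modifying enzymes 4, 5 and 3 rose and 3, 3 and 2 fell, shares higher that are close to the 29.8%, 38.3% and 27.5% over all genes, where 15.1%, 18.7% and 15.7% were lower (medians of 0.06, 0.11 and 0.04). Hdac6, the tubulin deacetylase, fell by 0.36 and 0.50 at 8 and 20 weeks (limma adjusted p 0.00427 and 9.05e-05) and had 0.03 at 34 weeks. Sirt2, another deacetylase, rose by 0.25 and 0.43 at 20 and 34 weeks, and Ttll4 was not called. Of 8 tested sequestering, severing and depolymerising genes 2, 4 and 2 rose and 0, 2 and 1 fell (medians of 0.05, 0.35 and -0.08), with the severing enzymes Spast rising by 0.24, 0.48 and 0.48 and Katna1 falling by 0.42 at 20 weeks, and Kif2a rising by 0.35 at 20 weeks. Of 13 tested kinesin-1 and dynein genes 5, 9 and 7 rose and 0, 0 and 1 fell, beside the same shares of all genes (medians of 0.24, 0.43 and 0.32). Kif5b rose by 0.40 and 0.34 at 20 and 34 weeks, Dynll2 fell by 0.40 at 34 weeks, and Dync1h1, the dynein heavy chain, was called at none.

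The genes whose log2(CPM + 1) over the 38 mice was most like the mean of the 9 standardised members were Cdc42 (r = 0.93), Dynll1 (0.91), Ykt6 (0.90), and Arf1 (0.90), with r of 0.74, 0.70, 0.68 and 0.65 after removal of the group means. Cdc42 is a small GTPase of the cytoskeleton, Dynll1 a dynein light chain, and Ykt6 and Arf1 act in vesicle traffic. Each of these genes was called higher in HFD than in CD mice at every duration (limma adjusted p of at most 0.0304). Their log2 fold changes lay between 0.23 (Ykt6) and 1.47 (Dynll1). They were chosen for their likeness to the members over all groups, so these diet differences are not independent of that choice. The mean does not stand for each member. With the mean of the other members, r was -0.01 for Tubb6, 0.12 for Tubb4b and 0.14 for Tuba4a. The rest had 0.49 (Tuba1c) to 0.82 (Tubb2a).

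Promoter windows of RefSeq on GRCm38.p6, from 250 bases before to 50 bases after the start, were matched for 7 of the 10 members. The last 100 bases before the start are shown for 2 pairs of members that varied together, Tuba1a with Tuba1b and Tubb2a with Tubb5, with capitals for 3 motifs on either strand. These are the CCAAT box, the TATA box written as TATAAA, and the core of the GC box written as GGGCGG. They lie at chr15:98953502-98953601, chr15:98934391-98934490, chr13:34078009-34078108 and chr17:35838302-35838401, all on the minus strand.
Tuba1a: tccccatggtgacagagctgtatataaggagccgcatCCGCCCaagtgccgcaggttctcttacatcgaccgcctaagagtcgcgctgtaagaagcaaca
Tuba1b: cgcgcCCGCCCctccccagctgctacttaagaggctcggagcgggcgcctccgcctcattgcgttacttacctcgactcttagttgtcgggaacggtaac
Tubb2a: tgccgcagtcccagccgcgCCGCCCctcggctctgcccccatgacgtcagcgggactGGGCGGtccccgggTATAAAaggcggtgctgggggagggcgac
Tubb5: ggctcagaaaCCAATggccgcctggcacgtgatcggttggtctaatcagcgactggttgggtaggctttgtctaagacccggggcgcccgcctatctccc
Over the whole 300-base windows, GGGCGG occurred in Tuba1a, Tuba1b, Tuba4a, Tubb2a, Tubb4b and Tubb5, and in 35.7% of all 32851 windows of that length. CCAAT occurred in Tuba1a, Tuba1c, Tubb4b and Tubb5 (37.4% of all windows), and 5 times in Tubb4b. TATAAA occurred in Tubb2a, 29 bases before the start, and in Tubb4b (13.6% of all windows). The CArG box was found in none of the 7 (1.63% of all windows). A match is a run of letters and not a measured site.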

How the data were processed

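Per the labels, 114 samples are 3 technical replicates of each of 38 mice, and the authors deposited 1 merged CPM column per mouse. The methods state alignment to mm10 with STAR (2.5 and 2.5.2b in the submitters' notes), featureCounts (Subread 1.5.1) on GENCODE vM2 exon unions, counting reads that overlap a gene unambiguously, and TMM normalization. Each deposited column sums to 1000000 CPM, so no TMM factor is visible. All values (100%) were whole multiples of 1 read within 0.1 reads, and the recovered reads were used for edgeR and DESeq2. The SDs and limma standard errors are over mice, so they describe the spread between mice and not counting error alone.

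log2(CPM + 1) was tested for the 10343 genes with a mean above 2.0, with limma 3.58.1 (R 4.3.3), mean-variance trend, 6 groups in 1 fit, 32 residual degrees of freedom, two-sided, Benjamini-Hochberg over all genes tested, threshold 0.05. Fold changes on this scale understate low genes. Tubb2b was tested with an exact permutation test (scipy 1.17.1). Alternatives were TMM factors, median-of-ratios size factors, edgeR 4.0.16 and DESeq2 1.42.0 on recovered reads, pseudocount 0.5, no filter, the compared groups alone, array weights, the macrophage marker mean as a covariate, mouse number as a block, and each mouse left out. The fits were tested on simulated data.

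The members and lists were chosen with earlier results of these data known. All members are named, and of each microtubule list the 3 tested genes with the highest mean CPM. Of the 5 genes most like the members by Pearson r, 4 are named and 1 is not reported here. Marker genes are named only as examples of their lists. No 2 mice of a group differed by as little as sampling noise (chi-square at least 10.7 per degree of freedom over 103 pairs). Sequences are from GENCODE vM21 transcripts and RefSeq promoters.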

Additional observations from a re-analysis of the deposited data

Results flagged for a closer look

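Among 60 sets of values (10 genes in 6 groups), 5 held a mouse far from the rest of its group, where chance gives about 1 in 20. Tuba1b was lowest in HFD mouse 4 at 20 weeks, at 150 CPM with the next mouse at 195 CPM. Tuba4a was highest in CD mouse 5 at 8 weeks, at 25.6 CPM with the next at 19.0 CPM. Tubb5 was highest in CD mouse 5 at 34 weeks, at 289 CPM with the next at 186 CPM, and this mouse also had the highest macrophage marker sum of its group. Tubg1 was lowest in CD mouse 6 at 8 weeks, at 16.1 CPM with the next at 21.7 CPM, and highest in CD mouse 2 at 20 weeks, at 26.6 CPM with the next at 21.6 CPM.

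The diet difference changed with duration, by interaction terms in limma, in 6 instances. For Tuba1a it was lower at 34 weeks by -2.57 than at 20 weeks (adjusted p = 0.0152) and by -2.38 than at 8 weeks (adjusted p = 0.00959). Between 34 and 8 weeks it differed by -0.82 for Tuba1b (adjusted p = 0.0136), -0.61 for Tubg1 (adjusted p = 0.0114), 0.81 for Tubb5 (adjusted p = 0.0234) and 1.18 for Tubb6 (adjusted p = 0.0120).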

How the results depend on the processing

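In the comparisons of the diets, TMM factors, median-of-ratios size factors, edgeR and DESeq2 ended the calls of Tubb5 at 8 weeks and of Tuba1b and Tubg1 at 20 weeks, and turned no called member. Of the changes called with or without the macrophage covariate, it turned the direction of Tuba1c at 8 (-0.54) and 20 weeks (-0.22) and between 34 and 8 weeks of CD (-0.48), and Tubb5 between 34 and 8 weeks of CD (-0.17). Changes called in neither fit also turned, such as Tubb6 at 20 weeks (-0.36) and between 34 and 8 weeks of HFD (-0.45). With that covariate, 3 members were called between the diets at 20 weeks, 1 at 34 weeks, 5 between 34 and 8 weeks of CD, 0 between 20 and 8 weeks of HFD and 1 between 34 and 8 weeks of HFD. Over all genes it called 2220 at 20 weeks, 650 at 34 weeks, and 858 between 20 and 8 and 5198 between 34 and 8 weeks of CD. In HFD mice it called 519 between 20 and 8 and 1343 between 34 and 8 weeks.

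Array weights called 7032 genes between the diets at 8 weeks, 1543 between 20 and 8 weeks of CD, 6392 between 20 and 8 and 5016 between 34 and 20 weeks of HFD, and 4263 and 3407 for the diet difference between 20 and 8 and between 34 and 20 weeks. They called 3 members between 20 and 8 weeks of CD and 4 for the diet difference between 20 and 8 weeks. In HFD mice they called 4 members between 34 and 20 weeks and 7 between 34 and 8 weeks, where they called 5975 of the 10343 genes. Fitting the compared groups alone called 2457 genes between the diets at 34 weeks, 2698 (with 3 members) for the diet difference between 20 and 8 weeks and 723 between 34 and 20 weeks. DESeq2 called 590 genes between 20 and 8 weeks of CD and 851 for the diet difference between 20 and 8 weeks. The cause of these changes was not tested.

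Leaving out 1 mouse gave 217 to 483 genes between 20 and 8 weeks of CD, with the lowest without 20 week CD mouse 4. For the diet difference between 20 and 8 weeks it gave 196 to 1313 genes and 0 to 1 members, over 1.5 times from the 464 genes reported for 16 of 24 mice, with 1313 genes and the 1 member without 20 week CD mouse 1. Between 34 and 20 weeks it gave 709 to 1575 genes, with 709 without 20 week CD mouse 4.

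With mouse number as a replicate block, 4, 6 and 5 members were called between the diets at 8, 20 and 34 weeks, beside 4574, 5905 and 4520 of the 10343 genes. Tubb5 at 8 weeks then had an adjusted p of 0.0663 in limma. The block also ended the calls of Tubb5 for the diet difference between 34 and 8 weeks (0.73) and of Tuba4a between 20 and 8 weeks of HFD (0.40). Mice of the same number did not all deviate together (r of -0.51 to 0.53 over 18 pairs of a CD with an HFD mouse, 8 above 0.1). In 3 of the 18 pairs the HFD mouse of the same number was the closest match. The main fit took the mice as unpaired, and whether mice of a number shared handling was not tested. Depth limits Tubb2b, where 1 read is worth 0.0646 to 0.108 CPM.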
